A study of Mus musculus with 2 samples.

Results

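IgD B cells of mouse Peyer's patches were described from their B cell receptor transcripts. An IgD cell was a barcode with exactly 1 productive heavy chain whose constant gene was called IGHD and whose heavy chain had fewer than 100 unique molecular identifiers (UMIs, tags that mark single captured transcripts). The rule found 986 IgD cells in the Cre+ library and 723 in the Cre- library. Together these were 1709 of the 6241 cells with 1 productive heavy chain, of which the Cre+ library held 3294 and the Cre- library 2947. IgM cells, chosen by the same rule with IGHM, numbered 1913 in the Cre+ library and 1533 in the Cre- library and served as the comparison.

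The mice behind the Cre+ library were H2-Ab1 fl/fl; Villin:Cre+, and those behind the Cre- library H2-Ab1 fl/fl; Villin:Cre-. Both groups therefore carried the floxed allele of H2-Ab1, the gene of an MHC class II beta chain, and the Villin promoter directs Cre to the intestinal epithelium, so that B cells themselves were not the targeted cells. Each library pooled CD45+ cells, enriched on magnetic beads, from the Peyer's patches of 4 adult female mice, and was made with 10x Genomics chemistry for 5′ ends of receptor transcripts. With 1 pooled library per genotype, mice could not be separated, no replicate existed and no test between genotypes was possible. Values are therefore shares with exact Clopper-Pearson 95% intervals, or medians with exact order-statistic intervals. These intervals cover counting error only and leave out the spread between mice and between libraries.

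IgD is made from the same rearranged heavy chain gene as IgM, by alternative processing of 1 long transcript that reaches past the mu exons into the delta exons. Mature naive B cells carry both classes on their surface with the same variable region, and IgD is lost when a cell enters the germinal centre reaction or switches class. In Peyer's patches, naive follicular B cells lie beside chronically active germinal centres in which cells switch to IgA. In the GRCm38.p6 assembly, as annotated by RefSeq, the delta gene lies at chr12:113407535-113416324 and the mu gene at chr12:113418826-113422730. A contig carries a single constant gene, so a cell listed as IgD may also have had mu transcripts of the same rearrangement. The class label rests on the IGHD call alone, since only receptor contigs were used. Constant genes of other classes were excluded on the productive heavy chain by the rule itself. A productive T cell receptor chain was found in 0 IgD cells and 0 IgM cells of either library, so it did not tell the classes apart.

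The libraries held 3748 barcodes (Cre+) and 3245 barcodes (Cre-), with 355258 and 355985 receptor UMIs in all contigs. They shared 10 barcodes, of which 3 in each library were IgD cells, and leaving these out changed no difference reported here by more than its interval. The largest lineage differed in size between the libraries: it had 64 cells with IGHV5-17 and IGHJ4 in the Cre+ library and 417 cells with IGHV4-1 and IGHJ3 in the Cre- library. Sample labels gave the genotypes, since the series' design text names the Cre-negative genotype for both groups, and the tables hold no measure of H2-Ab1 to check them.

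IgD cells, like IgM cells, were a collection of receptors that were nearly all different from each other. The 986 Cre+ IgD cells carried 986 different heavy chain CDR3 nucleotide sequences, the stretch that spans the V-D-J junction, and the 723 Cre- IgD cells carried 722. The 1913 Cre+ IgM cells carried 1904 and the 1533 Cre- IgM cells 1532. By the clonotype labels in the authors' deposited contig table, no IgD cell of either library belonged to a clonotype of 2 or more barcodes, against 10 Cre+ and 1 Cre- IgM cells. For a broader measure, cells of 1 library that agreed in IGHV and IGHJ gene and in the length of the CDR3 were joined into lineages at 85% or more CDR3 nucleotide identity. By that rule 4.46% of Cre+ IgD cells (44 of 986, 3.26 to 5.94%) had a partner in their library, against 5.33% of Cre+ IgM cells (102 of 1913, 4.37 to 6.44%). In the Cre- library it was 3.87% of IgD cells (28 of 723, 2.59 to 5.55%) and 4.11% of IgM cells (63 of 1533, 3.17 to 5.23%). A similar search in the other library, where no common clone can exist because the mice differ, found partners for 2.94% of Cre+ IgD cells and 4.15% of Cre- IgD cells, against 3.61% of Cre+ IgM cells and 4.57% of Cre- IgM cells. The intervals of the own-library and other-library shares overlapped for both classes in both libraries. The overlap was narrowest for Cre+ IgM cells (4.37 to 6.44% in their own library, 2.82 to 4.54% in the other). Overlap does not show that shares are equal, and intervals of these differences were not computed. The libraries searched differed in size, with 3294 cells in Cre+ and 2947 in Cre-.

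The CDR3 sequences show what these partners were. The lineages of 2 or more cells that held an IgD cell numbered 36 in the Cre+ library and 25 in the Cre- library, and 32 and 24 of them were pairs. The median distance from an IgD cell to its closest partner was 5 nucleotides in both libraries (range 0 to 8 in Cre+, 2 to 7 in Cre-), and 0 closest partners shared the light chain V gene. The largest Cre+ lineage with an IgD cell, apart from the one of 64 cells, had 4 cells with IGHV9-3 and IGHJ4. Its members are given as CDR3 nucleotides 5′ to 3′, with capitals where a member differs from the IgD cell, because they show where in the junction the differences fell.
Cre+ IgD cell with an IGKV5-39 light chain: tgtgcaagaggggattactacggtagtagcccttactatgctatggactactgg
Cre+ IgM cell with another kappa light chain: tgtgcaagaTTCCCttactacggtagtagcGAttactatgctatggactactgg
Cre+ IgM cell with an IGKV1-135 light chain: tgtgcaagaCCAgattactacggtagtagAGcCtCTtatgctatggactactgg
Cre+ IgM cell with an IGLV1 light chain: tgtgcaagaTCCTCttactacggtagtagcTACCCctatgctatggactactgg

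The 3 IgM members differed from the IgD cell at 7, 8 and 10 positions. All of these positions lay in 2 stretches on either side of a run shared by all 4 cells, and each cell had its own light chain V gene. The largest Cre- lineage with an IgD cell had 5 cells with IGHV1-26 and IGHJ2, and its members are given in the same way.
Cre- IgD cell with an IGKV8-19 light chain: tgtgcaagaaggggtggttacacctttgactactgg
Cre- IgM cell with an IGKV14-111 light chain: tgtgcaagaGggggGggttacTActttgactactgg
Cre- IgM cell with an IGKV4-79 light chain: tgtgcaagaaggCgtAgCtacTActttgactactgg
Cre- IgM cell with an IGKV10-94 light chain: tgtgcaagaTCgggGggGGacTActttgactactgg
Cre- IgA cell with an IGKV8-30 light chain: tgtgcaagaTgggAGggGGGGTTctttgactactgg

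These 5 cells had 5 light chain V genes and differed from the IgD cell at 4 to 9 positions, all between the shared start and the shared end of the CDR3. In Cre+ lineages other than the one of 64 cells, the closest IgD and IgM pairs differed at 2 positions, as in a pair with IGHV1-26, IGHD1-1 and IGHJ1.
Cre+ IgD cell with an IGKV4-63 light chain: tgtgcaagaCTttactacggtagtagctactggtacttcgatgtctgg
Cre+ IgM cell with an IGKV3-4 light chain: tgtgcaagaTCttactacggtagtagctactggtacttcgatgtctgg

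When the light chain V gene had to be shared as well, 0 of 986 Cre+ IgD cells and 0 of 723 Cre- IgD cells remained in a lineage of 2 or more. Taken as 3 counts of the total, a count of 0 allows shares of up to 0.304% in the Cre+ library and 0.415% in the Cre- library, and the exact 95% intervals reach 0.373% and 0.509%. Of IgM cells, 1.10% (21 of 1913, 0.681 to 1.67%) were in such a lineage in the Cre+ library and 0.522% (8 of 1533, 0.226 to 1.03%) in the Cre- library. In the other library, where no common clone can exist, such partners were found for 0.366% of Cre+ IgM cells (7 of 1913, 0.147 to 0.752%). For Cre- IgM cells it was 0.457% (7 of 1533, 0.184 to 0.939%), close to their own-library share. For IgD cells it was 1 cell of each library. The IgD minus IgM difference was -1.10 percentage points in the Cre+ library (-1.67 to -0.538) and -0.522 points in the Cre- library (-1.03 to 0.0670). The 21 Cre+ IgM cells belonged to 15 lineages, of which 8 also held a class-switched cell, and the 8 Cre- IgM cells to 5 lineages, of which 1 did. At 80% identity 3 Cre+ and 2 Cre- IgD cells had a partner with the same light chain V gene, against 29 Cre+ and 14 Cre- IgM cells.

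**Figure D1:**
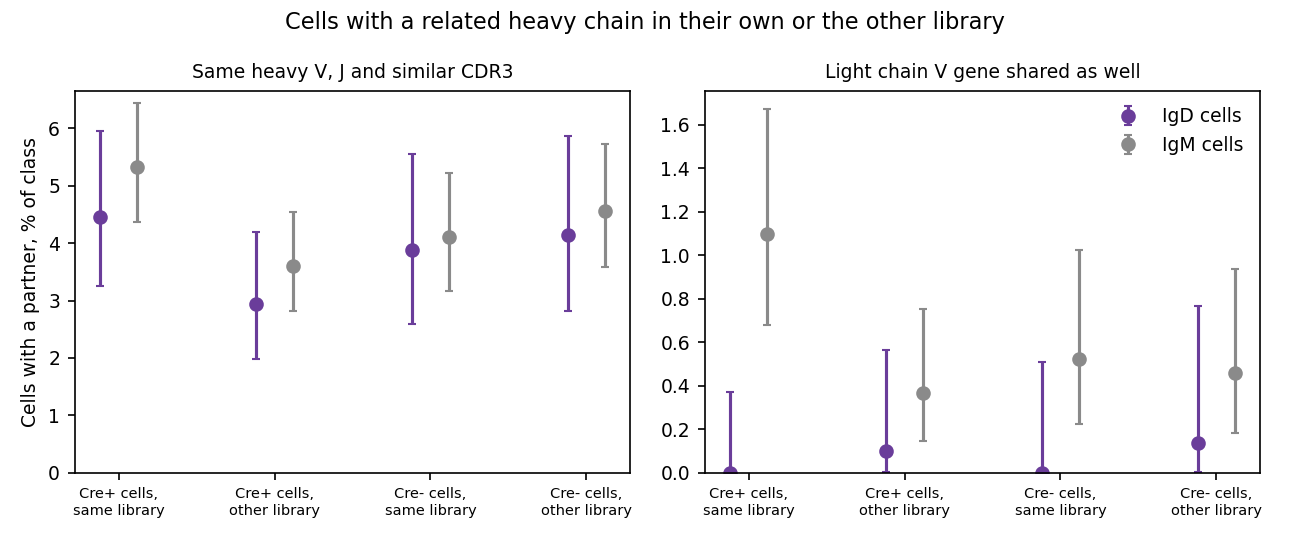
Cells with a related heavy chain, in percent of their class, for IgD cells (purple) and IgM cells (grey) with exact 95% intervals, searched in their own and in the other library. With the heavy chain alone (left) IgD shares lay between 2.94 and 4.46%, and with the light chain V gene shared as well (right) IgD cells had 0 partners in their own library.

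Identical CDR3 sequences were rare among IgD cells and are shown to set them beside the pairs above. A single Cre+ IgD cell carried the CDR3 of the 64-cell IGHV5-17 lineage, in which 62 cells had the same sequence. Of the 64 cells, 54 were class-switched and 7 were IgM cells. The contig of the IgD cell had 3 UMIs, and its light chain was IGKV5-48 with 12 UMIs. IGKV4-72 was the light chain V gene found most often in the lineage. The lineage was not uniform in light chain, with 13 different entries for the V gene, where a missing light chain would count as an entry.
Cre+ IgD cell and 64-cell lineage, IGHV5-17 with IGHJ4: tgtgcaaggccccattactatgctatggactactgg

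The other identical CDR3s joined different V genes to the same J gene, and none of them had a D gene called except the sequence with IGHD3-1.
Cre+ IgD cell with IGHV1-55 and Cre+ IgM cell with IGHV1-50, both IGHJ2: tgtgcaagatggggtgactactgg
Cre+ IgD cell with IGHV1-80 and Cre- IgM cell with IGHV1-39, both IGHD3-1 and IGHJ2: tgtgcaagatcgggtgactttgactactgg
Cre- IgD cell with IGHV2-2 and Cre+ IgM cell with IGHV3-6, both IGHJ1: tgtgccaggtacttcgatgtctgg
Cre- IgD cells with IGHV3-6 and with IGHV1-39, both IGHJ4: tgtgcaagagatgctatggactactgg

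These 4 sequences had 24, 30, 24 and 27 nucleotides. With V gene, J gene and CDR3 all required to match, 0 IgD cells had a counterpart in the other library.

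IgD cells were 30.1% of the Cre+ cells with a constant gene called (986 of 3276, 28.5 to 31.7%) and 24.6% of the Cre- cells (723 of 2937, 23.1 to 26.2%). The difference of 5.48 percentage points (3.24 to 7.71) depended on the largest lineages, in which 1 of 64 Cre+ cells and 0 of 417 Cre- cells were IgD. Without those lineages it was 1.97 points (-0.441 to 4.36), and with each lineage counted once per class it was 2.32 points (-0.133 to 4.77). Among unswitched cells alone, IgD cells were 34.0% of IgD plus IgM cells in the Cre+ library (986 of 2899) and 32.0% in the Cre- library (723 of 2256), a difference of 1.96 points (-0.655 to 4.57). The interval of each of these 3 differences includes 0.

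Heavy chain transcript counts had near-equal medians in both classes, while high counts were less frequent in IgD cells of both libraries. Heavy chain UMIs per IgD cell had a median of 8 in the Cre+ library (quartiles 5 and 12) and 8 in the Cre- library (quartiles 5.5 and 12), against 8 for Cre+ IgM cells (quartiles 5 and 13) and 9 for Cre- IgM cells (quartiles 5 and 14). Heavy chains with 20 or more UMIs were found in 5.27% of IgD and 8.89% of IgM cells of the Cre+ library, a difference of -3.61 points (-5.50 to -1.60). For Cre- cells the shares were 6.78% of IgD and 9.78% of IgM cells, a difference of -3.01 points (-5.36 to -0.473). At 30 or more UMIs the shares were 0.913% of IgD and 3.19% of IgM cells (Cre+), and 0.830% of IgD and 3.46% of IgM cells (Cre-). Low counts, of 4 or fewer UMIs, were found in 22.5% of IgD and 19% of IgM cells of the Cre+ library, a difference of 3.49 points (0.329 to 6.73). The Cre- library did not show this, with 18.7% of IgD and 19% of IgM cells and a difference of -0.310 points (-3.76 to 3.29).

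IgD cells made up 12.9% of the IgD plus IgM cells with 30 to 99 heavy chain UMIs in the Cre+ library (9 of 70, 6.05 to 23.0%) and 10.2% in the Cre- library (6 of 59, 3.82 to 20.8%). In the other ranges of UMIs they made up 28.3 to 42.1% (Cre+) and 28.7 to 35.2% (Cre-). The limit of 100 UMIs removed 0 IgD cells: the highest Cre+ IgD cells had 65 and 36 UMIs and the highest Cre- IgD cells 37 and 34. It removed 12 Cre+ and 9 Cre- IgM cells, which had at least 126 and 148 UMIs, while the highest IgM cells kept had 96 and 97.

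Light chain transcripts showed the same upper tail. Their median per cell was 27 UMIs in IgD and 30 in IgM cells of the Cre+ library, and 32 in IgD and 32.5 in IgM cells of the Cre- library. Light chains with 60 or more UMIs were found in 7.44% of IgD and 10.7% of IgM cells (Cre+), a difference of -3.26 points (-5.41 to -0.987). For Cre- cells the shares were 8.54% of IgD and 13.5% of IgM cells, a difference of -4.98 points (-7.65 to -2.13). The median ratio of light to heavy chain UMIs was 3.44 in IgD and 3.50 in IgM cells (Cre+), and 3.73 in IgD and 3.50 in IgM cells (Cre-), with overlapping intervals in both libraries.

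**Figure D2:**
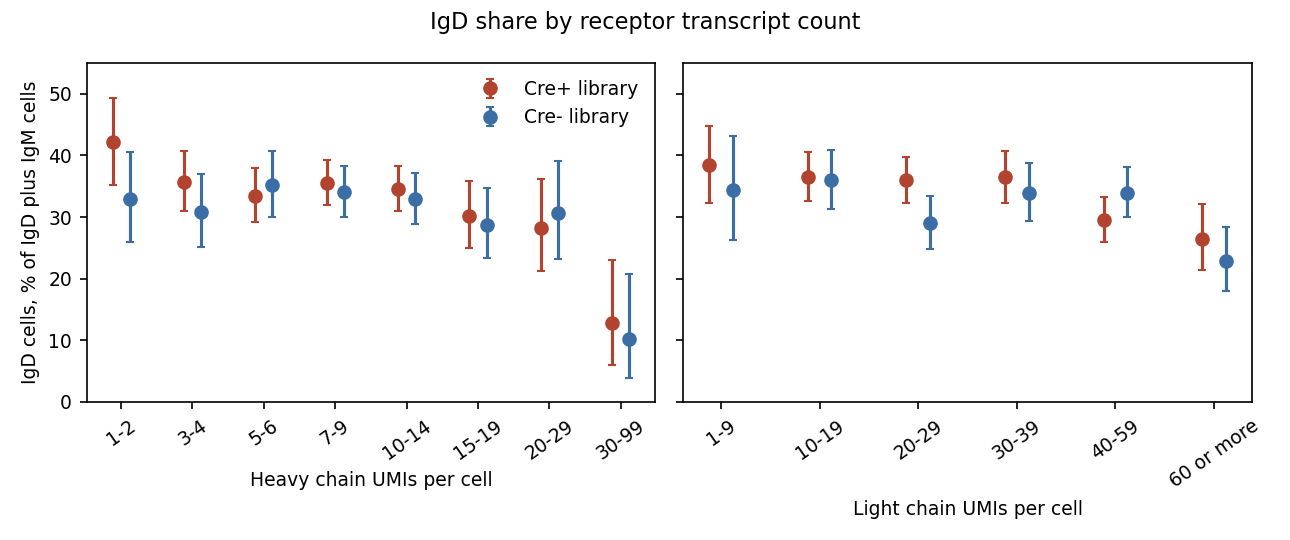
IgD cells in percent of IgD plus IgM cells, by heavy chain UMIs (left) and light chain UMIs (right) per cell, in the Cre+ (red) and Cre- (blue) libraries with exact 95% intervals. At 30 to 99 heavy chain UMIs the IgD share was 12.9% (Cre+) and 10.2% (Cre-), below all other ranges.

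The IGHV1 family, the largest family of mouse heavy chain V genes, took a larger share of IgD cells than of IgM cells in both libraries. In the Cre+ library it was used by 65.9% of IgD cells (650 of 986) and 61.0% of IgM cells (1166 of 1913), a difference of 4.97 points (1.21 to 8.67). Cre- cells used it in 66.0% of IgD cells (477 of 723) and 60.6% of IgM cells (929 of 1533), a difference of 5.37 points (1.03 to 9.64). The IGHV6 family went the other way, with 2.43% of IgD and 4.08% of IgM cells in the Cre+ library and 2.21% of IgD and 4.44% of IgM cells in the Cre- library. Its differences were -1.64 points (-2.96 to -0.205) and -2.22 points (-3.71 to -0.553). IGHV10 had negative differences too, -1.39 points (-2.37 to -0.304) in the Cre+ library and -0.827 points (-2.0 to 0.548) in the Cre- library.

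Some other families differed between the libraries in size or sign. IGHV8 was used by 5.88% of IgD and 3.76% of IgM cells in the Cre+ library, a difference of 2.12 points (0.437 to 3.96). Cre- cells used it in 3.04% of IgD and 3.78% of IgM cells, a difference of -0.741 points (-2.30 to 1.03). IGHV7 was used by 1.32% of IgD and 1.25% of IgM cells in the Cre+ library, against 0.692% of IgD and 2.28% of IgM cells in the Cre- library, where the difference was -1.59 points (-2.59 to -0.447). IGHV4 had 3 IgD and 21 IgM cells in the Cre+ library and 5 IgD and 13 IgM cells in the Cre- library. Its differences were -0.793 points (-1.42 to -0.0773) in Cre+ and -0.156 points (-0.915 to 0.840) in Cre-. IGHV13 had 2 IgD and 16 IgM cells in the Cre+ library and 0 IgD and 8 IgM cells in the Cre- library. The IGHV13 differences were similar in both libraries, -0.634 points (-1.18 to 0.00411) in Cre+ and -0.522 points (-1.03 to 0.0670) in Cre-. For IGHV2, IGHV3, IGHV5, IGHV9 and IGHV14, with 3.55 to 7.47% of IgD cells each, the intervals of the IgD minus IgM difference included 0 in both libraries. IGHV11 was used by 0 IgD cells of either library and by 2 Cre+ and 1 Cre- IgM cells, IGHV12 by 1 IgD cell and IGHV15 by 3.

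**Figure D3:**
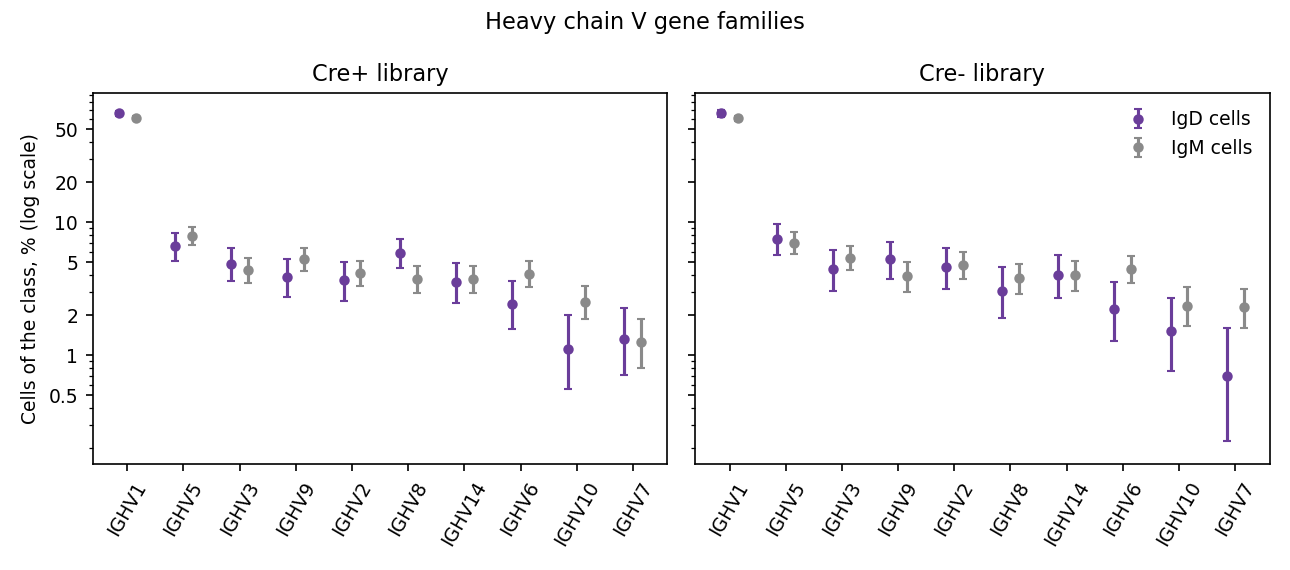
Share of IgD cells (purple) and IgM cells (grey) that used each of the 10 IGHV families most frequent in IgD cells, on a log scale with exact 95% intervals, in the Cre+ (left) and Cre- (right) libraries. IGHV1 stood at 65.9% and 66.0% of IgD cells, above IgM cells, and IGHV6 at 2.43% and 2.21%, below them.

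IGHV1 and IGHV8 genes fill the part of the locus farthest from the constant genes, so the IgD share was also read along the chromosome. The 95 IGHV genes seen in IgD or IgM cells, all found in the RefSeq table, were ordered by start on chromosome 12 and cut into 4 parts with similar numbers of cells. From the part nearest the constant genes to the farthest, IgD cells were 31.1, 33.4, 35.1 and 36.8% of IgD plus IgM cells in the Cre+ library. In the Cre- library they were 31.0, 29.4, 32.8 and 35%. The farthest part had the highest share in both libraries. Its interval (33.1 to 40.5% in Cre+, 31.1 to 39.1% in Cre-) overlapped that of the nearest part (27.8 to 34.5% and 27.4 to 34.9%). Overlap does not show that the shares are equal. Intervals of the difference, as given for the families above, were not computed for these parts.

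IgD cells used 84 IGHV genes in the Cre+ library and 80 in the Cre- library. IGHV1-26 (chr12:114788372-114788665) was used most, by 75 Cre+ IgD cells (7.61%) and 40 Cre- IgD cells (5.53%), against 123 Cre+ IgM cells (6.43%) and 91 Cre- IgM cells (5.94%). IGHV1-64 followed with 51 Cre+ IgD cells (5.17%) and 30 Cre- IgD cells (4.15%), against 3.08% of Cre+ and 3.52% of Cre- IgM cells. IGHV1-82 was used by 28 Cre+ IgD cells (2.84%) and 35 Cre- IgD cells (4.84%), against 3.45% of Cre+ and 2.74% of Cre- IgM cells. The other genes among the 10 most used were IGHV3-6, IGHV1-80, IGHV1-72, IGHV1-9, IGHV9-3, IGHV8-8 and IGHV1-55, each with 1.72 to 3.96% of IgD cells. Of the 10, IGHV1-64, IGHV1-9 and IGHV8-8 were more frequent in IgD than in IgM cells in both libraries, and IGHV1-55 was less frequent in both. Across the 95 genes the shares in IgD and IgM cells had a Pearson correlation of 0.879 in the Cre+ library and 0.905 in the Cre- library. That is a description across genes measured in the same 2 libraries.

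Single genes were compared where IgD and IgM cells together numbered 20 or more in each library, which held for 42 IGHV genes. A ratio of the IgD share to the IgM share of 1.5 or more in either direction was found for 15 of 42 genes in the Cre+ library (35.7%) and 13 of 42 in the Cre- library (31%). IGHV6-6 and IGHV10-3 were past it in the lower direction in both libraries (4.76% of the genes), and 0 genes in the higher direction. IGHV6-6 (chr12:114434788-114435087) was used by 8 IgD and 34 IgM cells in the Cre+ library, a ratio of 0.457, and by 4 IgD and 23 IgM cells in the Cre- library, a ratio of 0.369. IGHV10-3 (chr12:114523441-114523887) was used by 4 IgD and 23 IgM cells in the Cre+ library, a ratio of 0.337, and by 4 IgD and 20 IgM cells in the Cre- library, a ratio of 0.424. When both intervals had to be apart as well, 1 gene remained in the Cre+ library (2.38%) and 0 in the Cre- library. That gene, IGHV8-12, was named after its values were seen: it was used by 2.74% of IgD cells (27 cells) and 1.10% of IgM cells (21 cells) of the Cre+ library, and by 0.968% of IgD cells (7 cells) and 1.89% of IgM cells (29 cells) of the Cre- library.

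**Figure D4:**
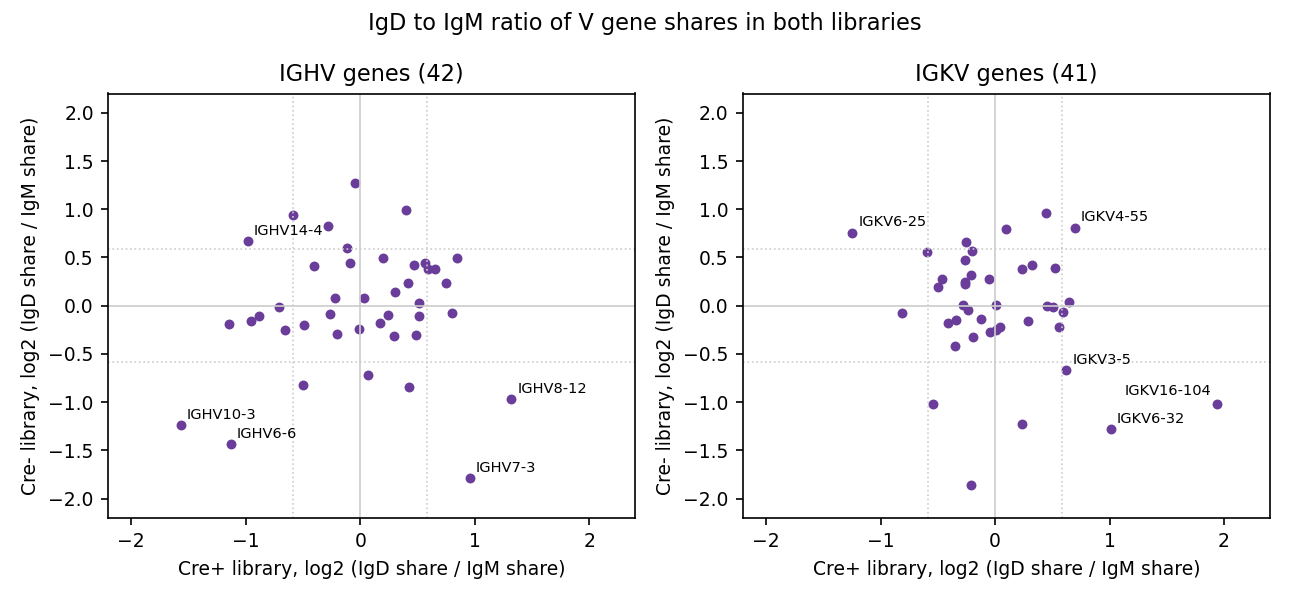
Log2 ratio of the share of IgD cells to the share of IgM cells for 42 IGHV genes (left) and 41 IGKV genes (right), in the Cre+ library (x axis) against the Cre- library (y axis); dotted lines mark a ratio of 1.5 and named genes lie past it in both libraries. The points form no line, with a Pearson correlation of 0.08 for IGHV and -0.25 for IGKV genes.

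Over the 42 IGHV genes the log2 ratios of the libraries had a Pearson correlation of 0.0814 and a Spearman correlation of 0.0852. Both libraries had a ratio above 1 for 12 genes (28.6%) and below 1 for 12 genes (28.6%). IGHV14-4, IGHV7-3 and IGHV8-12 were past a ratio of 1.5 in opposite directions (7.14% of the genes). A deviation of a single IGHV gene in one library thus gave little description of the same gene in the other.

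D families and J genes of the heavy chain had IgD minus IgM differences whose intervals included 0 in both libraries, with 1 exception among single D genes. A D gene was called in 92.0% of Cre+ and 90.9% of Cre- IgD cells. Of these, IGHD1-1 took 37.7% (342 of 907) in the Cre+ library and 36.7% (241 of 657) in the Cre- library, against 35.8% of Cre+ and 36.7% of Cre- IgM cells. The IGHD2 family took 39.1% of Cre+ and 42.6% of Cre- IgD cells, against 39.6% of Cre+ and 44.3% of Cre- IgM cells. IGHD4-1, the D gene nearest to the J genes, took 12.9% and 11.1% of IgD cells, against 13.3% and 10.0% of IgM cells, in the Cre+ and Cre- libraries. IGHD3 genes took 7.28% of Cre+ and 7.76% of Cre- IgD cells, and IGHD5 genes 2.98% and 1.83%. Of the 13 single D genes, IGHD3-2 alone had an interval that excluded 0, in the Cre+ library, and it was named after its values were seen. It took 4.19% of IgD and 6.39% of IgM cells in the Cre+ library, a difference of -2.2 points (-3.94 to -0.327), and 5.78% of IgD and 4.69% of IgM cells in the Cre- library, a difference of 1.09 points (-0.977 to 3.41).

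Of the J genes, IGHJ2 led with 36.8% of Cre+ IgD cells (363 of 986) and 38.0% of Cre- IgD cells (275 of 723), against 35.5% of Cre+ and 34.8% of Cre- IgM cells. IGHJ4 took 22.4% of Cre+ IgD cells and 24.2% of Cre- IgD cells, IGHJ3 21.6% and 18.4%, and IGHJ1 19.2% and 19.4%. IGHJ1 and IGHJ2 were higher and IGHJ3 and IGHJ4 lower in IgD than in IgM cells in both libraries. These differences lay between -2.94 and 3.27 points, and their intervals included 0. With barcodes of 2 or more heavy chains added, the Cre+ IGHJ4 difference was -3.40 points (-6.57 to -0.144).

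Median heavy chain CDR3 length was 14 amino acids for IgD and IgM cells of both libraries, and lengths ranged up to 23 in Cre+ and 22 in Cre- IgD cells. CDR3s of 15 or more amino acids were found in 41.3% of IgD and 45.2% of IgM cells of the Cre+ library, a difference of -3.89 points (-7.72 to -0.0205). The Cre- shares were 44.3% of IgD and 45.8% of IgM cells, a difference of -1.53 points (-5.98 to 2.95). The Cre+ interval included 0 under 4 of the alternatives tried. Within each J gene, the median length was the same in IgD and IgM cells: 15 amino acids with IGHJ1, 13 with IGHJ2, 14 with IGHJ3 and 15 with IGHJ4. CDR3s with a net negative charge, counted from lysine, arginine, aspartate and glutamate, were found in 41.0% of Cre+ and 40.2% of Cre- IgD cells, against 43.2% of Cre+ and 44.0% of Cre- IgM cells. Those with a net positive charge were found in 23.5% of Cre+ and 20.5% of Cre- IgD cells, against 21.2% and 21.5% of IgM cells. The intervals of the charge differences included 0. Tyrosine, the residue that D genes often supply, was counted in the CDR3 without its first and last residue. Its median share was 18.8% in Cre+ IgD cells and 20% in Cre- IgD cells and in the IgM cells of both libraries, with overlapping intervals.

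**Figure D5:**
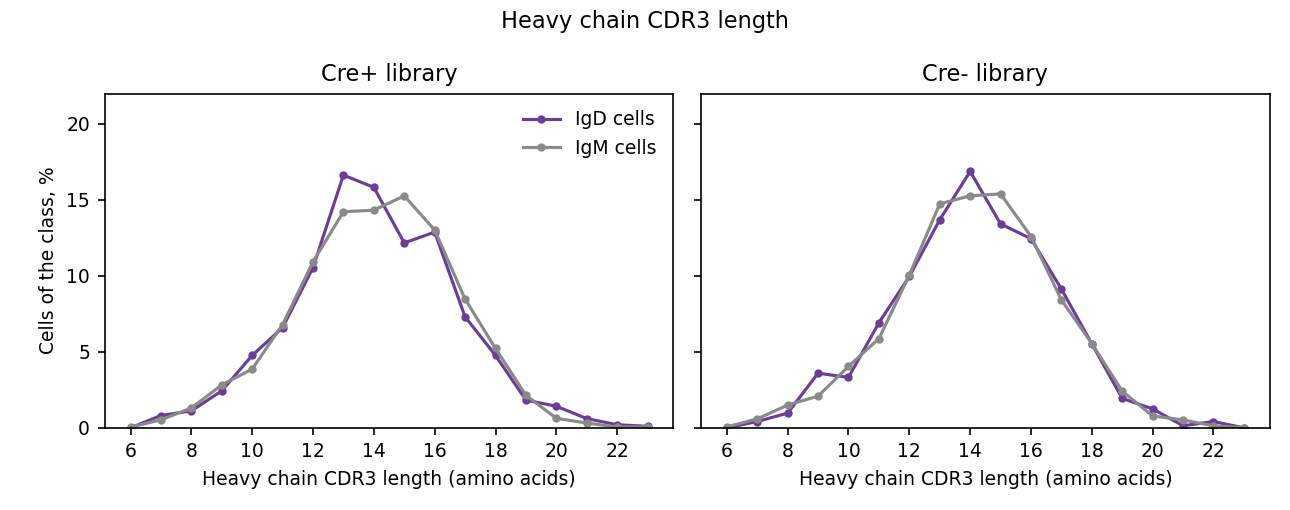
Distribution of heavy chain CDR3 length in amino acids, as percent of IgD cells (purple) and IgM cells (grey), in the Cre+ (left) and Cre- (right) libraries. All 4 distributions have a median of 14 amino acids.

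Somatic mutation could be looked at only in the J-encoded end of the CDR3, since no germline V sequences were given. The last 9 CDR3 nucleotides ahead of its final codon were compared with the most frequent version among all unswitched cells with the same J gene. These versions are shown because the count of mismatches rests on them.
IGHJ1: ttcgatgtc
IGHJ2: tttgactac
IGHJ3: tttgcttac
IGHJ4: atggactac

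A mismatch was found in 16.1% of Cre+ IgD cells (159 of 986, 13.9 to 18.6%) and 15.1% of Cre- IgD cells (109 of 723, 12.5 to 17.9%), against 14.9% of Cre+ IgM cells and 15.3% of Cre- IgM cells. Mismatches were unevenly spread over the J genes, with 30.6% of Cre+ and 29.1% of Cre- IgD cells that used IGHJ2 and 4.52% and 1.71% of those that used IGHJ4. Bases added or trimmed at the junction count as mismatches too, so the share is no rate of mutation. IgD and IgM cells differed by 1.23 points (-1.57 to 4.13) in the Cre+ library and -0.188 points (-3.35 to 3.14) in the Cre- library.

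A productive light chain was found in 99.5% of Cre+ IgD cells (981 of 986) and 98.8% of Cre- IgD cells (714 of 723). Lambda chains were the main light chain in 4.59% of Cre+ IgD cells (45 of 981) and 5.60% of Cre- IgD cells (40 of 714), against 5.17% of Cre+ and 4.75% of Cre- IgM cells. Of the lambda IgD cells, IGLV1 was used by 35 of 45 in the Cre+ library and 21 of 40 in the Cre- library. IGLV2 was used by 5 Cre+ and 11 Cre- IgD cells, and IGLV3 by 5 and 8. At least 2 productive light chains were found in 9.63% of Cre+ and 8.85% of Cre- IgD cells, against 9.10% of Cre+ and 8.94% of Cre- IgM cells.

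Among kappa J genes, IGKJ5, the last to be reached as rearrangement moves along the kappa locus, was used by 26.8% of IgD and 23.6% of IgM cells of the Cre+ library, a difference of 3.25 points (-0.224 to 6.79). Its Cre- shares were 28.2% of IgD and 24.2% of IgM cells, a difference of 3.95 points (-0.125 to 8.13). Both differences were positive and both intervals included 0. The Cre+ interval excluded 0 with each lineage counted once per class (3.59 points, 0.0957 to 7.16), and the Cre- interval did so without the barcodes found in both libraries (4.15 points, 0.0611 to 8.34). IGKJ1 took 30.6% of Cre+ IgD cells and 26.9% of Cre- IgD cells, IGKJ2 29% and 33.7%, and IGKJ4 13.7% and 11.3%. Their differences from IgM cells lay between -2.62 and 0.279 points, with intervals that included 0.

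Kappa V genes followed IgM cells closely, with correlations of 0.930 (Cre+) and 0.913 (Cre-) over 88 genes. IGKV10-96 (chr6:68631965-68632430) was the most used, by 52 Cre+ IgD cells (5.56%) and 40 Cre- IgD cells (5.93%), against 5.78% of Cre+ and 4.92% of Cre- IgM cells. IGKV1-117 took 5.13% of Cre+ IgD cells and 3.56% of Cre- IgD cells, and IGKV1-135 by 3.85% and 4.30%. IGKV6-15, IGKV1-110 and IGKV6-23 completed the 6 most used, with 2.97 to 5.04% of IgD cells. Of 41 IGKV genes with enough cells, a ratio of 1.5 or more between IgD and IgM cells was found for 9 in the Cre+ library (22%) and 11 in the Cre- library (26.8%). IGKV4-55 was past it in the higher direction in both libraries (2.44% of the genes), with 16 IgD and 19 IgM cells in the Cre+ library (ratio 1.62) and 9 IgD and 11 IgM cells in the Cre- library (ratio 1.75). Its intervals overlapped in both libraries. Both libraries had a ratio above 1 for 8 IGKV genes (19.5%) and below 1 for 10 (24.4%). IGKV16-104, IGKV3-5, IGKV6-25 and IGKV6-32 were past 1.5 in opposite directions (9.76%). With the intervals required to be apart, 1 gene was past the ratio in the Cre+ library (2.44%), IGKV16-104, named after its values were seen, and 0 in the Cre- library. IGKV16-104 was used by 22 IgD and 11 IgM cells in the Cre+ library (2.35% and 0.611%) and by 6 IgD and 26 IgM cells in the Cre- library (0.890% and 1.80%).

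Other contigs of the same barcodes showed which constant genes occurred beside the productive IgD chain. A further, non-productive or partial contig with IGHM was found in 17.7% of Cre+ IgD cells (175 of 986) and 18.7% of Cre- IgD cells (135 of 723), against 18.5% of Cre+ and 19.4% of Cre- IgM cells. One with IGHD was found in 10.3% of IgD and 8% of IgM cells of the Cre+ library, a difference of 2.35 points (0.0972 to 4.73), and in 8.02% of IgD and 7.96% of IgM cells of the Cre- library, a difference of 0.0639 points (-2.32 to 2.64). The Cre+ interval included 0 with a minimum of 3 heavy chain UMIs and with cells without a light chain left out. A further contig with a switched constant gene was found in 1.22% of Cre+ and 1.24% of Cre- IgD cells, against 1.62% of Cre+ and 1.24% of Cre- IgM cells. A non-productive contig with an IGHV gene and either IGHM or IGHD, which can be the transcript of the other, silenced heavy chain allele, was found in 5.27% of Cre+ and 4.01% of Cre- IgD cells. Of those with 1 of these constant genes, the contig carried IGHD in 55.8% of Cre+ IgD cells (29 of 52, 41.3 to 69.5%) and in 16.0% of Cre+ IgM cells (15 of 94, 9.22 to 25%). That difference was 39.8 points (22.8 to 55.1). In the Cre- library the shares were 41.4% of IgD cells (12 of 29, 23.5 to 61.1%) and 22.9% of IgM cells (19 of 83, 14.4 to 33.4%), a difference of 18.5 points (-2.24 to 39.9). The share with IGHD was thus higher in IgD than in IgM cells in both libraries, with an interval that excluded 0 in the Cre+ library and included it in the Cre- library. T cell receptor contigs, none of them productive for the alpha or beta chain, were found in 3.85% of Cre+ and 3.18% of Cre- IgD cells, against 3.55% of Cre+ and 2.48% of Cre- IgM cells.

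Between the libraries, IgD cells differed in few features. Of 58 measures compared, the interval of the Cre+ minus Cre- difference in IgD cells excluded 0 for 3. These were the IGHV8 family with 5.88% of Cre+ and 3.04% of Cre- IgD cells (2.84 points, 0.777 to 4.84), IGLV1 among lambda cells with 77.8% and 52.5% (25.3 points, 3.45 to 45.0), and IGKJ2 with 29% and 33.7% (-4.73 points, -9.43 to -0.0537). In IgD cells IGHV1 differed by -0.0522 points (-4.66 to 4.59), and the share of J mismatches by 1.05 points (-2.55 to 4.57). The IgM cells of the same libraries had intervals that excluded 0 for other measures. Those were the IGHD2, IGHD3, IGHD4 and IGHV7 families and light chains with 60 or more UMIs. Of 34 IGHV genes with 20 or more IgD cells over both libraries, 8 had a Cre+ to Cre- ratio of 1.5 or more in either direction (23.5%), 3 higher (8.82%) and 5 lower (14.7%) in Cre+. Of 32 IGKV genes, 13 did (40.6%), 4 higher (12.5%) and 9 lower (28.1%). For 0 of these genes were the intervals of the libraries apart, a stricter rule than the one used for the 58 measures. By the interval of the difference, 0 was excluded for IGKV6-32 (1.61 points, 0.296 to 2.90) and IGKV16-104 (1.46 points, 0.105 to 2.77). It was also excluded for IGKV12-46 (1.75 points, 0.0441 to 3.38) and IGKV6-25 (-1.48 points, -2.96 to -0.225).

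For comparison, the interval of the IgD minus IgM difference excluded 0 for 13 of the 58 measures in the Cre+ library and 6 in the Cre- library. For 5 it did so in both libraries with the same sign: IGHV1 and IGHV6 use, heavy chains with 20 or more and with 30 or more UMIs, and light chains with 60 or more UMIs. These 5 are not separate differences. Cells with 30 or more heavy chain UMIs are among those with 20 or more, and median light chain UMIs rose with heavy chain UMIs.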

How the data were processed

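Receptor contigs were analysed from 1 pooled library per genotype. Per the submitters' processing notes, Cell Ranger was used with the GRCm38 build, in a version not given in the sources used here. The authors deposited a contig table and a clonotype table per library, with whole-number counts of UMIs, reads and barcodes per the file headers. All contigs were flagged as called cells with high confidence, so other barcodes were not analysed here. Counts were used without normalisation. A barcode with 1 distinct productive heavy chain CDR3 was a cell, represented by the contig with the most UMIs. Barcodes with 2 or more, which can be doublets, were left out (145 in Cre+, 83 in Cre-), and no doublet caller was run. The light chain was the productive one with the most UMIs. Intervals of differences combined both exact intervals by squares of their arms. Lineages used single linkage. Genes were named by use, or by a ratio of 1.5 or more the same way in both libraries. Alternatives changed the limits on heavy chains and UMIs, counted lineages once, left out the largest lineages or shared barcodes, weighted IgM cells to the UMIs of IgD cells, and changed identity, J window and gene limits. Gene positions came from RefSeq (GRCm38.p6), where all 95 IGHV and 88 IGKV genes matched. The members, measures and rules were chosen with earlier results of these data known. Functions were tested on simulated data, with Python 3.11.15, numpy 2.4.6, pandas 2.3.3 and scipy 1.17.1.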

Additional observations from a re-analysis of the deposited data

Results flagged for a closer look

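For 7 V genes the ratio of the IgD share to the IgM share was past 1.5 in one direction in the Cre+ library and in the opposite direction in the Cre- library. They were 3 of 42 IGHV genes (7.14%) and 4 of 41 IGKV genes (9.76%). With 1 library per genotype the difference was not tested across samples, and the intervals given cover counting error. Each value is the IgD minus IgM difference of shares in the Cre+ library less the same difference in the Cre- library. It was 2.56 points for IGHV8-12 (0.949 to 4.20), 1.56 points for IGHV7-3 (0.366 to 2.78) and -1.06 points for IGHV14-4 (-2.42 to 0.165). Of the kappa genes, IGKV16-104 stood at 2.65 points (1.08 to 4.23), IGKV6-32 at 2.24 points (0.667 to 3.84), IGKV6-25 at -1.94 points (-3.67 to -0.386) and IGKV3-5 at 0.884 points (-0.485 to 2.22). The genes rest on small numbers of IgD cells: 27 Cre+ and 7 Cre- cells for IGHV8-12, 11 and 3 for IGHV7-3, 6 and 9 for IGHV14-4, 22 and 6 for IGKV16-104, 22 and 5 for IGKV6-32, 7 and 15 for IGKV6-25, and 12 and 5 for IGKV3-5.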

How the results depend on the processing

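Of 799 values recomputed for 111 results, 784 moved by less than their interval or by less than 1.5 times and 15 moved further. The sign turned for 19 values, and 0 of these had an interval that excluded 0 in either setting (2 had no interval under the alternative, where IgM cells were weighted). The IgD share of Cre- cells was 29.2% with each lineage counted once and 28.7% without the largest lineages, which left Cre+ minus Cre- differences of 2.32 and 1.97 points. At 80% CDR3 identity the Cre- IgD minus IgM difference in lineage membership turned from -0.237 points (-1.94 to 1.68) to 2.09 points (-0.651 to 5.03), and with identical CDR3s that of light-sharing lineages in Cre+ was -0.523 points. With the ratio of 1.5 alone, without intervals apart, the IGHV counts were 15 (Cre+), 13 (Cre-) and 8 (IgD cells between libraries), and the IGKV counts 9, 11 and 13. The count of IGKV genes higher in IgD cells of both libraries was 0 at a ratio of 2 and 2 with genes of 10 or more cells, where 1 was lower in both. The interval of the Cre+ IgD minus IgM difference in lineage membership excluded 0 at 90% identity (-1.23 points) and with identical CDR3s (-0.735 points). No paired analysis was possible because each genotype had 1 pooled library. Depth limits single genes, since 20 IgD plus IgM cells per library sufficed for a comparison, and a median IgD heavy chain rested on 8 UMIs.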

Other observations

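Heavy chain contigs of IgD cells had more reads per UMI than those of IgM cells, in both libraries. The median was 119 reads per UMI in IgD cells (117 to 120) and 106 in IgM cells (105 to 107) of the Cre+ library, and 105 in IgD cells (104 to 107) and 94.5 in IgM cells (93.6 to 95.4) of the Cre- library. It was higher in IgD cells in all 4 ranges of heavy chain UMIs compared, from 1 to 4 UMIs (122 in IgD and 107 in IgM cells of Cre+, 112.5 and 93.0 of Cre-) to 20 to 99 UMIs (118 and 110 of Cre+, 102 and 97.6 of Cre-). IgD heavy chain contigs also had a median length of 697 bases (Cre+) and 696 bases (Cre-), against 692 and 690 bases for IgM.

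Barcodes with 2 or more heavy chains, which stood outside the comparisons, had IGHD on the chain with most UMIs in 46 of 145 Cre+ and 22 of 83 Cre- cases. A light chain V gene shared with a similar heavy chain in the other library was found for 1 IgD cell of each library, and both partners were IgM cells. The Cre+ IgD cell used IGHV1-80 and IGLV1 and differed from its Cre- partner at 4 of 30 CDR3 nucleotides, and the Cre- IgD cell used IGHV5-17 and IGKV6-23 and differed from its Cre+ partner at 6 of 42.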
